A study of Mus musculus with 21 samples.

Results

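Microglia marker genes were examined in RNA from primary cortical cultures, as a set of 37 listed symbols matched against the gene names of the 4 deposited tables. Of these, 36 were present in all 4 tables, among 22040 genes present in any table and 19399 present in all of them. Siglech was not analysed here. The list was divided into 13 homeostatic genes (12 of them measured), taken here as markers of resting microglia, and 24 general myeloid genes, which macrophages and other myeloid cells also express.

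Microglia are the resident macrophages of the brain. They enter it early in development, depend on signalling through the receptor encoded by Csf1r, and are specified by myeloid transcription factors such as PU.1 (encoded by Spi1). Resting microglia survey their surroundings through purinergic and chemokine receptors such as P2ry12 and Cx3cr1, whereas complement, Fc receptor and lysosomal genes serve the uptake and breakdown of debris, and activated microglia are known to lower the homeostatic genes. In cultures such as these, microglia come along from the dissociated cortex, and AraC, which kills dividing cells, was added here to deplete glia.

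Cortices of newborn mice were used, either wildtype (WT) or transgenic for hTau P301S, a cDNA of mutant human tau under the prion promoter (Tau neurons), and cultures of both genotypes received AraC. Per the methods, the transgenic cultures were also seeded with pre-formed tau fibrils, and whether WT cultures were seeded too is not clear from the sources used here. If they were not, the transgene and the fibrils cannot be told apart. There were 5 Tau cultures with DMSO, 5 Tau cultures with AdipoRon, 5 WT cultures with DMSO and 6 WT cultures with AdipoRon, a small molecule agonist of the adiponectin receptors, for 24 h at 10 μM (the treatment text of the labels gives the unit as mM). According to the reporting summary, samples of one animal went into each treatment.

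The measure used here was the deposited mean expression of each gene in each table, in log2 CPM, edgeR's scale for a level relative to library size and not to transcript length. Each table covers 2 of the 4 groups, so it describes a pool of cultures. The DMSO pool held 10 cultures (5 Tau and 5 WT), the AdipoRon pool 11 (5 Tau and 6 WT), the WT pool 11 (5 with DMSO and 6 with AdipoRon) and the Tau pool 10 (5 with each). The Tau and WT pools share no culture, and neither do the DMSO and AdipoRon pools, so 2 differences were read: Tau minus WT over both treatments, and AdipoRon minus DMSO over both genotypes. Both splits hold the same 21 cultures, and the differences within a single genotype or treatment were not analysed here. No value per culture was used, so these levels carry no replicate error and no test, and a pool mean could rest on a few cultures. Where an animal gave cultures to both treatments, the Tau and WT pools hold fewer animals than cultures.

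The pools were first checked against each other. Added up in CPM and weighted by their cultures, the DMSO and AdipoRon pools gave between 0.981 and 1.02 times the sum of the Tau and WT pools over 19399 genes, and between 1.002 and 1.01 times that sum for the 36 members. The pools are not fully balanced. With every culture at the mean of its group, the 6 to 5 weighting alone could shift AdipoRon minus DMSO by at most 0.13 upward, for genes higher in WT, or 0.14 downward, for genes higher in Tau. It could shift Tau minus WT by at most 0.14 upward, for genes higher with DMSO, or 0.13 downward, for genes higher with AdipoRon. All genes together had a median difference of 0.002 for Tau minus WT and 0.02 for AdipoRon minus DMSO.

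RNA of the microglia marker genes was present in every pool. The homeostatic genes other than Sall1 lay between 0.30 and 5.34 log2 CPM over the 4 pools (up to 3.85 without Cx3cr1), and the general myeloid genes between 1.13 and 9.02 log2 CPM. Neuron markers such as Map2, Snap25 and Gad1 lay between 7.59 and 10.1 log2 CPM in the same pools, and astrocyte markers between 7.00 and 11.04 log2 CPM. Neuronal RNA was thus present, as labelled, beside RNA of glia, and these levels do not show how many cells of each type a culture held.

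Myeloid promoters often hold a purine-rich site for PU.1, and the letters GAGGAA were searched on both strands (TTCCTC on the other) in the 250 bases before each start listed by RefSeq (GRCm38.p6). The reference held 33 starts of 26 members, and 51.5% of these windows had a match, compared with 23.3% of all 32851 windows. Some genes have several starts, in part overlapping. By gene, a match was found for 12 of 18 general myeloid and 4 of 8 homeostatic genes, together 61.5% of the 26 members, compared with 25.9% of all 27025 genes. A match is a description of letters and not evidence of binding. The windows of 4 genes are shown because these genes had the lowest Tau minus WT value in each list (Fcrls and Aif1) and the lowest and highest AdipoRon minus DMSO value (Cx3cr1 and Cd68). All are on the minus strand, at chr3:87263525-87263774 for Fcrls, chr17:35176053-35176302 for Aif1, chr9:120068297-120068546 for Cx3cr1 and chr11:69666171-69666420 for Cd68, and capitals mark the searched letters.
Fcrls: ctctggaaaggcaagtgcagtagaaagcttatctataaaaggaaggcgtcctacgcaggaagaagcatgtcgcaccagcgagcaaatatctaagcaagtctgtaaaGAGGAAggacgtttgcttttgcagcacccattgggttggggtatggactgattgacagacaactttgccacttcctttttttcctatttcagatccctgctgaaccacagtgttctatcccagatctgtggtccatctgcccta
Aif1: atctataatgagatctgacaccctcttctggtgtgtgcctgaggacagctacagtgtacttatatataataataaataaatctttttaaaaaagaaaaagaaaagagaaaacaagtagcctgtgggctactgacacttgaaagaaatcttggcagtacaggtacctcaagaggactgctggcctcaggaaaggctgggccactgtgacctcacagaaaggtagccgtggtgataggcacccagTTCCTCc
Cx3cr1: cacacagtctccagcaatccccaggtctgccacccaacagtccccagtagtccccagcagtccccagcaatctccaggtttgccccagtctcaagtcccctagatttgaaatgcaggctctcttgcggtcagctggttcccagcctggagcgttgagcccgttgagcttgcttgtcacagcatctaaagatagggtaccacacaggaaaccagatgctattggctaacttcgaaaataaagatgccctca
Cd68: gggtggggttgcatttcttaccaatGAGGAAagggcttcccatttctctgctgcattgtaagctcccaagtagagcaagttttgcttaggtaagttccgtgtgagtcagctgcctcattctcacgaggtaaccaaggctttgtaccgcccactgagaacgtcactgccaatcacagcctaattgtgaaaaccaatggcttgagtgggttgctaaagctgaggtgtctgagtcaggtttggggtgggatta
The windows of Fcrls and Cd68 had the letters on the sense strand and that of Aif1 on the other strand, while the Cx3cr1 window had none.

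Microglia genes were lower in the Tau pool than in the WT pool. Of the 36 members, 35 had a lower level in the Tau pool, compared with 9804 of all 19890 genes in both tables. By at least 1.5-fold (0.58 on the log2 scale), 29 members were lower, compared with 2.61% of all genes. None was higher by that fold, compared with 2.57% of all genes. The median difference was -0.79 log2 CPM over the members, -0.88 over the 12 homeostatic genes and -0.78 over the 24 general myeloid genes. Among members over 2 log2 CPM in all 4 tables, the medians were -0.52 over 4 homeostatic genes, Sall1 among them, and -0.78 over 23 general myeloid genes. This limit on level also drops genes because they are low in the Tau pool, such as Tmem119 (2.96 in the WT and 1.57 in the Tau pool). It therefore cannot decide which part of the list was lower. By count, 8 of 12 homeostatic and 21 of 24 general myeloid genes were lower by 1.5-fold, so the lower level was shared by both parts of the list. In the distribution of all genes, 34 members lay below the 5th percentile (-0.40) and 15 below the 1st percentile (-0.81). The paper called the transcriptional response to tangles negligible and named only Gbp2b, which is not on this list, as differing between Tau and WT neurons. The pools here combine both treatments and carry no test.

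**Figure D1:**
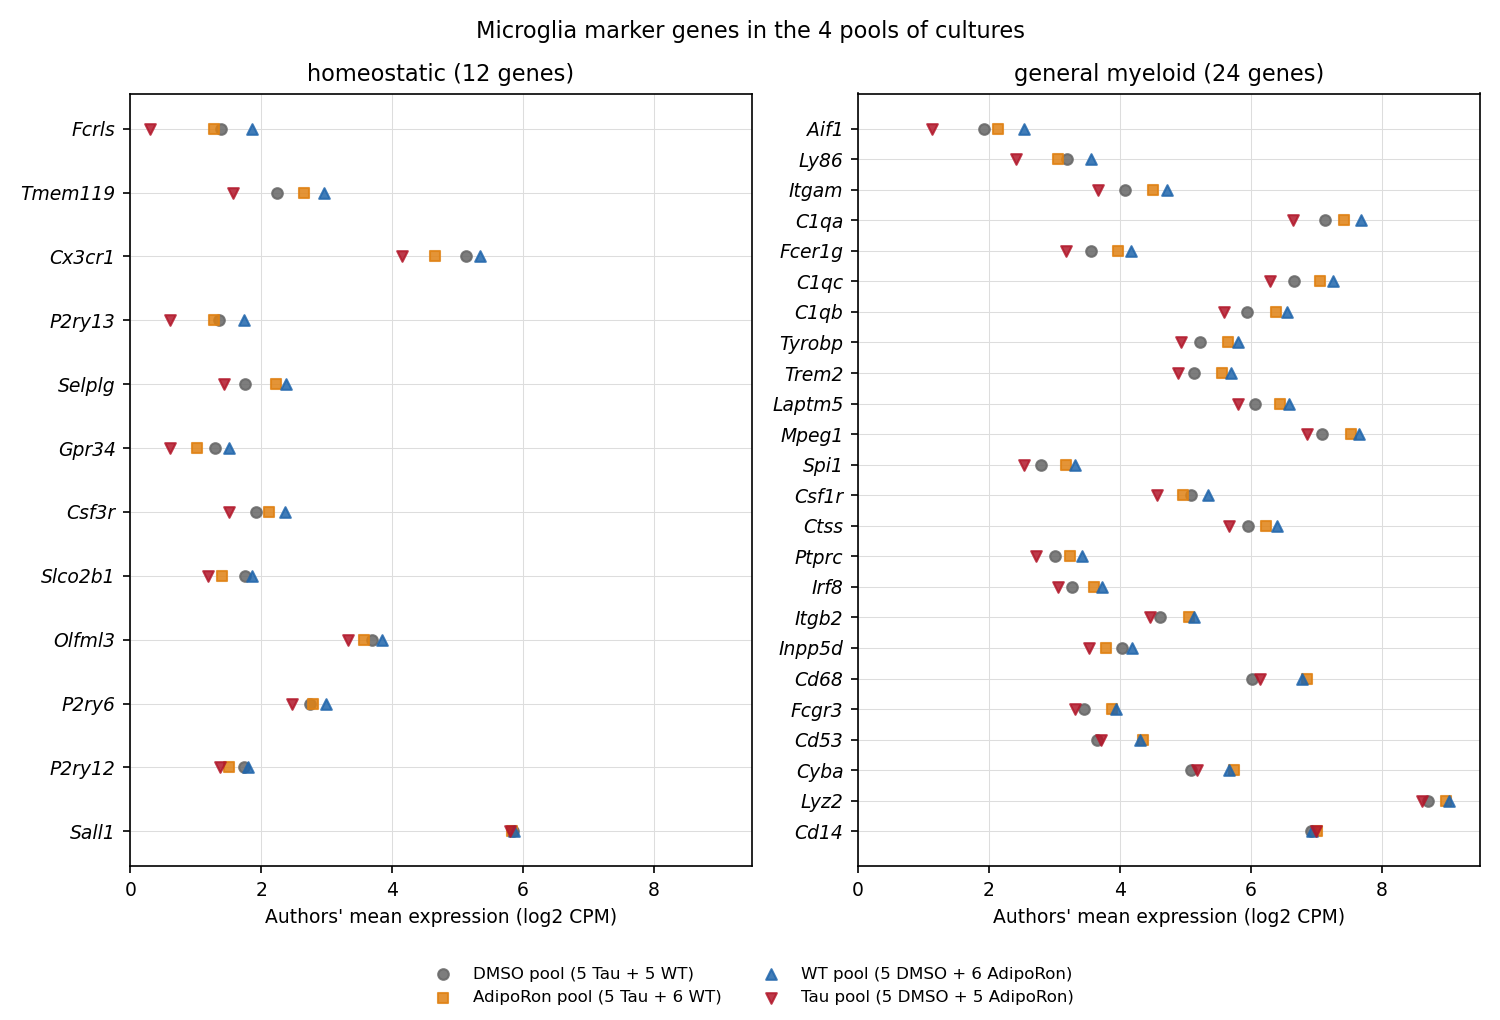
Deposited mean expression (log2 CPM) of the 12 homeostatic and 24 general myeloid genes in each pool of cultures, one symbol per pool and no error bar because no value per culture was used. The WT pool was the highest and the Tau pool the lowest for 32 of the 36 genes, and Sall1 and Cd14 had their symbols together. That order only restates which difference between pools was larger, and its share over all genes was not computed.

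Among homeostatic genes, Fcrls, an Fc receptor-like gene typical of rodent microglia, had the widest gap, with 1.86 log2 CPM in the WT pool and 0.30 in the Tau pool, a 2.95-fold difference. Its level was 1.38 in the DMSO and 1.28 in the AdipoRon pool. Tmem119, a transmembrane protein gene used to tell microglia from other macrophages, had 2.96 log2 CPM in the WT and 1.57 in the Tau pool, which is 2.63-fold. These genes are scarce, and the mean that edgeR gives for scarce transcripts contains a prior count. The same held at a higher level for Cx3cr1, the fractalkine receptor through which neurons signal to microglia, with 5.34 log2 CPM in the WT and 4.16 in the Tau pool, a 2.28-fold difference.

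The purinergic receptors, which sense extracellular nucleotides, did not move as 1 group. P2ry13 had 1.73 log2 CPM in the WT and 0.61 in the Tau pool (2.17-fold), but the gap was 1.43-fold for P2ry6 and 1.34-fold for P2ry12, both under the 1.5-fold limit. P2ry12, the receptor that guides microglial processes to injury, was low in every pool, at 1.80 log2 CPM in the WT, 1.73 in the DMSO, 1.51 in the AdipoRon and 1.38 in the Tau pool. Gpr34, a lysophospholipid receptor gene, differed by -0.91 between the Tau and WT pools, and Selplg, a selectin ligand gene, by -0.95. Csf3r, the granulocyte colony-stimulating factor receptor, differed by -0.86, Slco2b1, an organic anion transporter gene, by -0.68, and Olfml3, a secreted protein gene, by -0.52.

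Sall1, the transcription factor that maintains microglial identity, stood apart from the rest of its list. It had 5.84 log2 CPM in the DMSO, 5.83 in the AdipoRon, 5.86 in the WT and 5.81 in the Tau pool, a range narrower than that of any other member. Neural progenitors also express Sall1, and its source in these cultures was not tested. The other transcription factor genes of the list were lower in the Tau pool, with -0.78 for Spi1 and -0.67 for Irf8, which acts with PU.1 in myeloid cells.

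Complement genes were among the general myeloid genes with the wider gaps. C1qa, one of the 3 chains of C1q, the recognition molecule of the classical pathway that tags synapses for removal, had 7.69 log2 CPM in the WT and 6.64 in the Tau pool, a 2.07-fold difference. C1qb and C1qc, the partner chains, differed by -0.96 each, so the 3 chains lay within 0.09 of each other. Trem2, a lipid receptor linked to risk of Alzheimer disease, differed by -0.81 and its adaptor Tyrobp by -0.88, while the related adaptor Fcer1g differed by -0.99. Aif1, which encodes the common microglial stain Iba1, had 2.54 log2 CPM in the WT and 1.13 in the Tau pool, the widest gap of the general myeloid genes at 2.66-fold.

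Surface and signalling genes spread more widely. The integrin chain Itgam (CD11b) had a Tau minus WT difference of -1.06 and its partner Itgb2 of -0.67, while the leukocyte phosphatase Ptprc (CD45) had -0.69. Ly86, an accessory protein of innate receptors, had -1.15. Csf1r, on which microglia depend, had 5.34 log2 CPM in the WT and 4.57 in the Tau pool (1.72-fold), and Inpp5d, a lipid phosphatase gene, and the Fc receptor gene Fcgr3 differed by -0.65 and -0.63. The tetraspanin gene Cd53 was at the limit, with a 1.502-fold gap. It was also higher in the AdipoRon pool, so the weighting of the pools could decide whether it is counted.

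Lysosomal and phagocytic genes had a narrower range, from -0.79 to -0.40. Mpeg1, a pore-forming protein gene of phagosomes, and Laptm5, a lysosomal membrane protein gene, differed by -0.79 each and the protease gene Ctss by -0.73. Cd68, a lysosomal glycoprotein gene, had 6.78 log2 CPM in the WT and 6.14 in the Tau pool (1.56-fold). Cyba, a subunit of the phagocyte oxidase, differed by 1.40-fold and the lysozyme gene Lyz2 by 1.32-fold, both under the limit. Cd14, the co-receptor for lipopolysaccharide, was the exception, with 6.94 log2 CPM in the WT and 6.99 in the Tau pool.

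Between the treatment pools, the 2 parts of the list had different medians. The parts were chosen with earlier results of these data known, so this contrast is a description. They also differed in level, with 4 homeostatic and 23 general myeloid genes over 2 log2 CPM in every pool. In the AdipoRon pool, the 24 general myeloid genes had a median of 0.39 log2 CPM above the DMSO pool and 21 of them were higher, whereas the 12 homeostatic genes had a median of -0.09 and 8 of them were lower. Of all genes, 55.0% were higher and 45.0% lower. In the distribution of all genes for this difference, 3 members lay in the upper 5% (above 0.47) and 0 below the 5th percentile (-0.58). The general myeloid median of 0.39 was under that upper limit. Relative to the neuron markers, whose median was -0.21 in this difference, the homeostatic median became 0.12, so its direction depends on the scaling, and the general myeloid median became 0.60. Past 1.5-fold, 3 members were higher, compared with 2.88% of all 19693 genes, and 0 were lower, compared with 4.94%. Relative to the neuron markers, 16 members were higher by that fold (14 general myeloid and 2 homeostatic), compared with 8.24% of all genes.

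Without that scaling, the 3 members past 1.5-fold were general myeloid. Cd68 had 6.03 log2 CPM in the DMSO and 6.86 in the AdipoRon pool, a 1.78-fold difference, Cd53 had 3.65 and 4.36 (1.64-fold) and Cyba had 5.09 and 5.74 (1.58-fold). These genes and Cd14 had their highest level in the AdipoRon pool and their lowest in the DMSO pool. For the other 32, the highest level was in the WT and the lowest in the Tau pool. Both splits hold the same cultures, so this order restates which of the 2 differences was larger in size. Its share over all genes was not computed. Of the 32 genes, 21 had a higher level in the AdipoRon than in the DMSO pool.

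The C1q chains and the Trem2 group were higher in the AdipoRon pool by similar amounts. The differences were 0.29 for C1qa, 0.44 for C1qb and 0.40 for C1qc, and 0.42 for Trem2, 0.43 for Tyrobp and 0.42 for Fcer1g. Mpeg1 and Itgb2 had 0.44 each, Itgam and Fcgr3 had 0.42 each and Laptm5 had 0.38, while Ctss and Lyz2 had 0.27 each. Spi1 had 0.38, Irf8 0.34, Ptprc 0.22 and Aif1 0.21. All of these lay under 1.5-fold.

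Genes lower in the AdipoRon pool included receptors of both parts of the list. Cx3cr1 had 5.13 log2 CPM in the DMSO and 4.66 in the AdipoRon pool, the lowest difference of the members at -0.47 (1.38-fold lower). Slco2b1 had -0.35, Gpr34 -0.28, P2ry12 -0.22, Olfml3 -0.12, Fcrls -0.11 and P2ry13 -0.07. Of the general myeloid genes, Inpp5d had -0.25, Ly86 -0.14 and Csf1r -0.12. All 10 of these genes were higher in the WT than in the Tau pool.

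Homeostatic genes did not all lie with Cx3cr1. Selplg had 0.47, Tmem119 had 0.41, Csf3r had 0.20 and P2ry6 had 0.04, the first 2 at the level of the general myeloid genes. Without Selplg, Csf3r and P2ry6, the homeostatic median was -0.12 for AdipoRon minus DMSO and -0.91 for Tau minus WT. Tmem119 had 2.24 log2 CPM in the DMSO and 2.65 in the AdipoRon pool, although P2ry12, a marker of the same resting state, had 1.73 and 1.51. The level of Tmem119 over P2ry12 was 0.51 in the DMSO and 1.14 in the AdipoRon pool, and 1.16 in the WT and 0.19 in the Tau pool (log2).

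**Figure D2:**
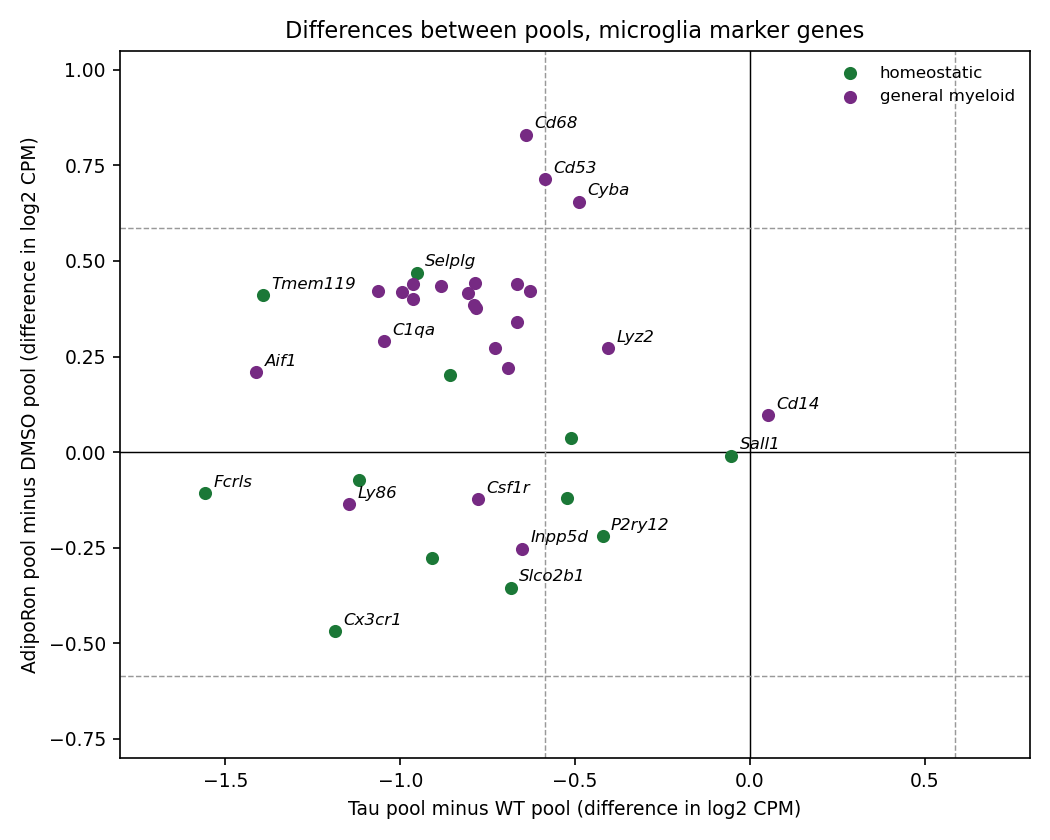
Each point is 1 of 36 genes, with Tau minus WT on the horizontal and AdipoRon minus DMSO on the vertical axis (differences in deposited mean log2 CPM), and dashed lines mark 1.5-fold. Of the 36 points, 35 lie left of 0, Cd68, Cd53 and Cyba lie above the upper line, Cx3cr1 is the lowest, and Sall1 and Cd14 lie near the origin.

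A ratio of 2 microglia genes within a pool does not depend on library size. Cd68 exceeded Cx3cr1 by 0.90 (log2) in the DMSO pool and by 2.20 in the AdipoRon pool, a change of 1.30, and by 1.44 in the WT and 1.98 in the Tau pool, a change of 0.55. Cd68 relative to C1qa changed by 0.54 with AdipoRon and by 0.41 in Tau against WT. C1qa relative to Cx3cr1 changed by 0.76 with AdipoRon, but only by 0.14 between the genotypes. Cd68 and Cx3cr1 were chosen as the members with the highest and lowest difference with AdipoRon, so these ratios are a description of those genes.

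**Figure D3:**
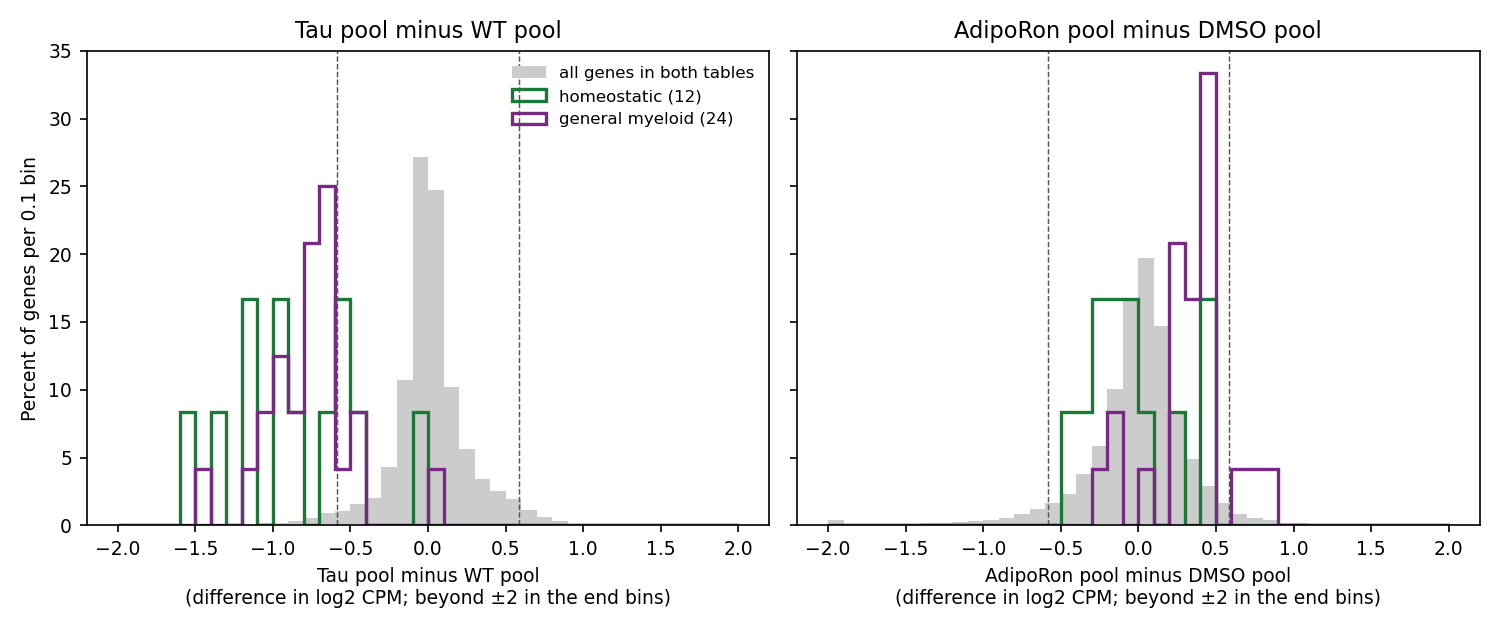
Percent of genes per bin of 0.1 log2 for Tau minus WT (left) and AdipoRon minus DMSO (right), with all genes in grey and the 2 parts of the list as outlines, dashed lines at 1.5-fold. For Tau minus WT, both outlines lie left of the grey peak except for Sall1 (-0.05) and Cd14 (0.05), while for AdipoRon minus DMSO 21 of 24 general myeloid genes lie above 0 and the homeostatic outline spans the peak.

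Markers of other cells that the cultures could hold are given beside these values. Border macrophage markers shared the direction in part, with 4 of 6 lower by 1.5-fold in the Tau pool and a median of -0.63. Ms4a7 (-0.83) and the mannose receptor gene Mrc1 (-0.63) were also higher in the AdipoRon pool, by 0.40 and 0.42. Their levels lay between 3.43 and 4.48 log2 CPM over the pools. Between treatments the list had a median of 0.41, with 0.66 for Cbr2 and 0.49 for Pf4. Both genes were scarce and were among the 4 lower in the Tau pool. Cbr2 lay between -1.46 and -0.60 log2 CPM over the pools and Pf4 between 0.01 and 0.65. Lyve1 was at 3.86 log2 CPM in the DMSO and -0.28 in the AdipoRon pool. Cd163, which was also scarce, had -1.19 between treatments and 0.52 for Tau minus WT. The oligodendrocyte lineage list was lower in the Tau pool for 6 of 6 genes, with a median of -0.38 and values of -0.45 for the myelin gene Mbp, -0.79 for Cspg4, -0.75 for Pdgfra, a marker of progenitors, -0.31 for Olig2, -0.26 for Mog and -0.17 for Olig1. Between treatments that list had a median of -0.32. Astrocyte markers had medians of 0.03 in both differences, and the 8 neuron markers 0.10 and -0.21. Between treatments the astrocyte markers were split, with 3 higher (Aldh1l1 by 0.42 and Gfap by 0.34 the most) and 3 lower (Slc1a3 at -0.24 and Aqp4 at -0.23 the most). For the 2 endothelial markers measured, Pecam1 lay between -1.02 and -0.98 log2 CPM in every pool and Flt1 differed by -0.58 and 0.42.

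The part of these other cells in the microglia values was not tested. In bulk RNA, fewer microglia and less RNA of these genes per microglia cannot be told apart. A mean over 10 or 11 cultures, possibly of fewer animals, does not show whether each culture or animal had the difference.

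**Figure D4:**
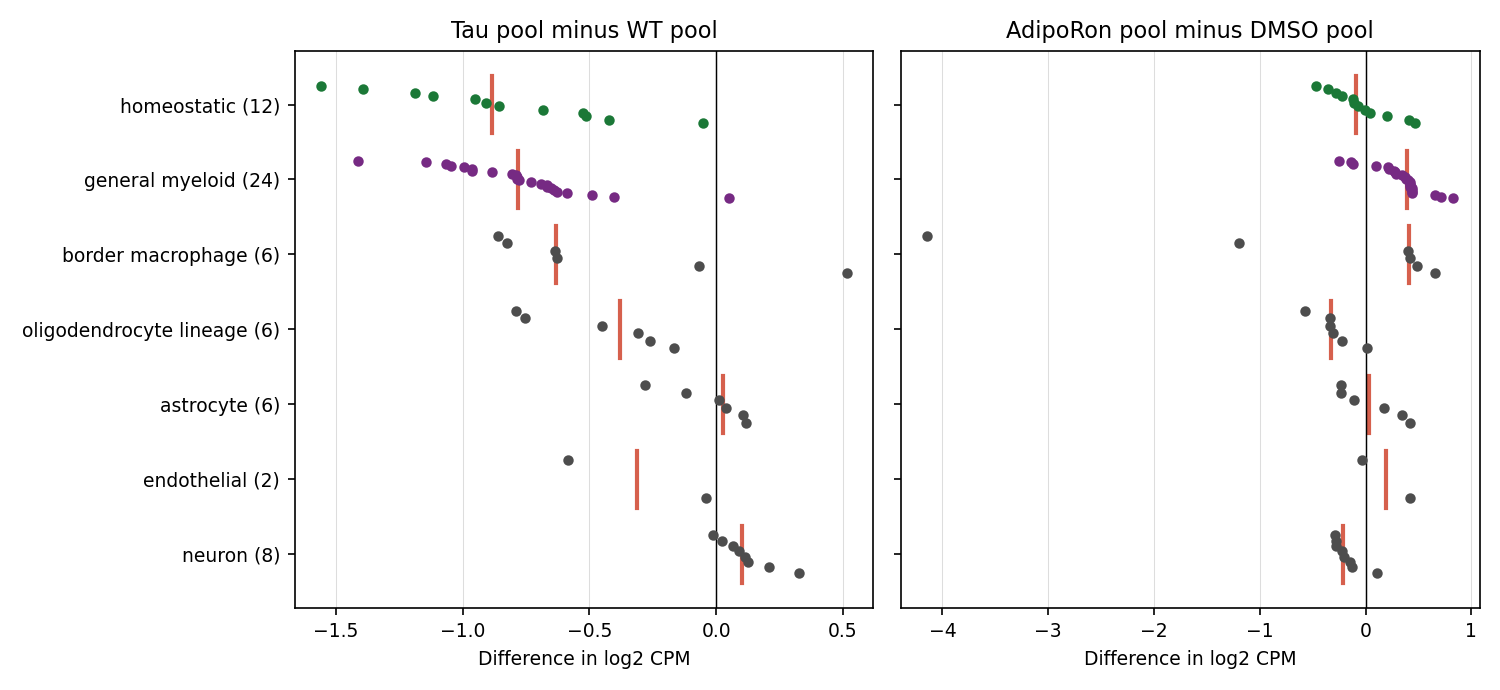
Differences in deposited mean log2 CPM between pools for each marker gene (points) and the median of each list (bars), Tau minus WT on the left and AdipoRon minus DMSO on the right, with the number of genes in brackets. The homeostatic and general myeloid medians are alike on the left (-0.88 and -0.78) and apart on the right (-0.09 and 0.39), and neuron and astrocyte markers lie near 0 on the left. The lists were chosen with earlier results of these data known.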

How the data were processed

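Polyadenylated RNA of 21 primary cortical cultures was sequenced. Per the methods, the authors trimmed reads, aligned them to mm10 with STAR, quantified them with RSEM and fitted a generalized linear model in edgeR; their results name GRCm39 and their tables Rsubread, and library scaling and filters are not given in the sources used here. The authors deposited 4 tables, each with 1 mean expression per gene as log2 CPM from edgeR over the 2 groups that the table names. This log2 column was the only measure used. The tables also hold the authors' own comparisons (fold changes, likelihood ratios, p-values and calls), which were not used here, so there is no test, no SE and no depth per culture, and edgeR was not run. Pools were assigned from the table names and checked by the sum of their CPM. The tables were made separately, so differences across them rest on the authors' scaling. Differences, medians and counts past 1.5-fold were computed with pandas 2.3.3 and numpy 2.4.6 in Python 3.11.15 and tested on simulated data. All members are named, and 1 further gene of the oligodendrocyte lineage list is not reported here. The members, lists and the 1.5-fold limit were chosen with earlier results of these data known. The other limits of 1.2-fold and 2-fold, the minimum of log2 CPM 2 and both scalings were added after seeing the data. RefSeq promoters (GRCm38.p6) were matched by symbol.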

Additional observations from a re-analysis of the deposited data

How the results depend on the processing

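Over 70 values under other settings, 50 stayed within 0.1 log2 or 1.5 times the count, 19 moved and 1 changed sign. This tally does not measure robustness, because part of the 50 could not move. Every measured member was in every pool, so requiring that repeated the main values. Scaling to all genes shifts a median by only 0.002 or 0.02, and a count of 0 cannot rise at a stricter fold. No paired analysis was possible because the tables give means of 2 groups and no value per culture; for the same reason other normalizations, filters, pseudocounts and leaving out a culture were not run. Relative to the neuron markers, the median Tau minus WT difference was -0.89 over all members, -0.99 for homeostatic and -0.88 for general myeloid genes. With that scaling, the median AdipoRon minus DMSO difference was 0.49 over all members, 0.60 for general myeloid and 0.12 for homeostatic genes, the last with its sign changed from -0.09, and 16 members passed 1.5-fold upward (14 general myeloid and 2 homeostatic). Restricted to members over 2 log2 CPM in all 4 tables, the homeostatic median of Tau minus WT was -0.52, but this limit itself drops genes that are low in the Tau pool. At 2-fold, 8 members were lower in the Tau pool, 4 in each part of the list, and 0 were higher in the AdipoRon pool. At 1.2-fold, 20 members (18 general myeloid and 2 homeostatic) were higher in the AdipoRon pool and 3, all homeostatic, were lower. The share of all genes past 1.2-fold or 2-fold was not computed. For Tau minus WT, the downward 2-fold limit lay below the 1st percentile of all genes (-0.81). Whether the 1.2-fold counts with AdipoRon are unusual cannot be decided, because they have no share of all genes beside them. Depth per culture is unknown and limits the scarce homeostatic genes most.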
